A study of Mus musculus with 24 samples.

Results

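The comparison described here asks whether colon tumours of a pair of mouse models differ from normal mucosa by the same amount for each microRNA (miRNA). The quantity is a difference of differences on the log2 scale, the tumour effect in the AOM-DSS model (tumour minus normal) minus the tumour effect in the APC model. All 24 of the 24 libraries of the series enter it by the group named in their column header: 5 tumours and 6 normal mucosae of APC, and 6 tumours and 7 normal mucosae of AOM-DSS. Of the 566 mouse miRNA probes, 563 passed a filter on low counts and were tested, and 3 were removed. A positive difference means that the AOM-DSS effect lay above the APC effect, either because a fall was smaller or because a rise was larger, and a negative difference means the opposite.

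Per the labels, the APC groups carry the genotype label APC and the other groups the label AOM-DSS, both from colon mucosa, with the status Normal or Tumor. The series' design text names APC;CpC and AOM/DSS mice. In the APC model, Cre recombinase under a CDX2 promoter (CpC) targets the tumour suppressor gene Apc in intestinal epithelium, mainly of the colon. In AOM/DSS mice the carcinogen azoxymethane (AOM) is combined with dextran sulphate sodium (DSS), which injures the colon lining and causes colitis. The labels do not say how old the animals were, how long AOM and DSS were given, or whether libraries of 1 group came from separate animals. All p-values therefore measure the spread between these libraries, which may in part be technical. RNA came from paraffin-embedded tissue according to the extraction protocol in the labels, but the design text speaks of frozen tissue, and this was not settled here.

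A mature miRNA guides the silencing complex to messenger RNAs through its seed, a short stretch near its 5′ end, so that miRNAs with the same seed can share targets. Many miRNAs are made by 1 tissue compartment above others: miR-192 and miR-194 by gut epithelium, miR-375 by endocrine and other mucosal epithelial cells, miR-143 and miR-145 by smooth muscle and other mesenchymal cells, and miR-126 by endothelium. A level in a piece of colon therefore reflects both the cells in the piece and the amount in each cell. In these bulk samples, fewer cells of a type and less RNA per cell cannot be told apart.

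The sequences of the miRNAs on which the results turn are given first, because the families among them are defined by the seed. Mature sequences and positions are RefSeq's (mouse build GRCm38.p6), written 5′ to 3′ with the seed, bases 2 to 8, in capitals. For 14 of 16 mature names looked up the reference table held a sequence outside the regions not printed here. A probe whose name gives no arm is taken as the arm that the older name stood for, the 5′ arm for those printed here. The miR-99 and miR-100 sequences share the seed ACCCGUA.
miR-99a-5p: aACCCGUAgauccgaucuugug
miR-99b-5p: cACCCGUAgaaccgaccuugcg
miR-100-5p: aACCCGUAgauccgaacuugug

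The miR-125 sequences, whose genes lie beside those of miR-99 and miR-100, share the seed CCCUGAG.
miR-125a-5p: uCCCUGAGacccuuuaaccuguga
miR-125b-5p: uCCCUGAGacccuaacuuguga
let-7e belongs to the let-7 family and comes from the same small cluster as miR-99b and miR-125a.
let-7e-5p: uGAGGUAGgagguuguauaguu

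The epithelial miRNAs miR-192 and miR-194 are neighbours in the genome but carry different seeds.
miR-192-5p: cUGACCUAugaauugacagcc
miR-194-5p: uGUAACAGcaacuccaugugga
The remaining sequences belong to miRNAs with a difference of their own.
miR-31-5p: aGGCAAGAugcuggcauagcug
miR-135a-5p: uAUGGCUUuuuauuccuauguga
miR-9-5p: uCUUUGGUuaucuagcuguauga
miR-139-5p: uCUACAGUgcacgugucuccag
miR-199a-3p: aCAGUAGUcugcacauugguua

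On GRCm38.p6, miR-99b-5p maps to chr17:17830194-17830215 (+ strand), let-7e-5p maps to chr17:17830366-17830387 (+ strand), miR-125a-5p maps to chr17:17830817-17830840 (+ strand). These 3 sequences lie within 647 bases of chromosome 17. miR-99a-5p maps to chr16:77598940-77598961 (+ strand). miR-100-5p maps to chr9:41531437-41531458 (+ strand). miR-125b-5p maps to chr16:77646279-77646300 (+ strand) and chr9:41581940-41581961 (+ strand). The chromosome 16 copy of miR-125b lies with miR-99a in a stretch of 47361 bases, and the chromosome 9 copy lies with miR-100 in 1 of 50525 bases. miR-192-5p maps to chr19:6264857-6264877 (+ strand). miR-194-5p maps to chr1:185313325-185313346 (+ strand) and chr19:6264658-6264679 (+ strand). miR-192 and the chromosome 19 copy of miR-194 are 220 bases from end to end. miR-31-5p maps to chr4:88910614-88910635 (- strand). miR-139-5p maps to chr7:101475382-101475403 (+ strand). The miR-135a, miR-9 and miR-199a-3p sequences each come from several genes. miR-135b and miR-375 are named without a sequence.

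The instrument was the NanoString nCounter, which counts colour-coded probes bound to single molecules. Mouse miRNA counts per library ran from 47235 to 329346 (median 251264). The shallowest libraries were AOM-DSS normal 7 (47235) and APC tumour 1 (134680), and both were also left out together. Levels are in CPM, the count of a probe for each 1000000 mouse miRNA counts of its library after TMM scaling. The 33 probes for viral miRNAs served as background, set in each library at their mean plus 2 SD. This background was 137 to 251 CPM over the 24 libraries, and 222 of the 566 probes had a median above it in at least 1 group. Per the file headers, all APC libraries ran on cartridge 1, the AOM-DSS normal libraries and AOM-DSS tumours 1 and 2 on cartridge 2, and AOM-DSS tumours 3 to 6 on cartridge 3. Model and cartridge therefore cannot be told apart within normal or within tumour tissue, and for most named differences the value is also given within cartridges 1 and 2, where the AOM-DSS tumour level rests on 2 libraries.

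The difference passed the threshold (edgeR's quasi-likelihood test, adjusted p under 0.05 after Benjamini and Hochberg over 563 miRNAs) for 38 miRNAs, 6.75% of those tested. It was positive for 22 (3.91%) and negative for 16 (2.84%). At an unadjusted p under 0.05 there were 120. Among the 38, positive differences ran from 0.62 to 1.63 and negative ones from -0.63 to -1.73, while the median of all 563 was 0.06. The largest positive ones above background were those of miR-375, miR-378 and miR-145, and the largest negative ones those of miR-9, miR-31 and miR-135a.

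Among these 38, the tumour effect was mostly larger in size in APC, at the scaling used here. How often this held over all 563 was not counted, and for 6 of the 22 the median of no group exceeded background. Of the 22 miRNAs with a positive difference, 12 had a negative effect in both models, 9 had effects of opposite sign and 1 was positive in both, and the APC effect was the larger in size for 19. Their tumour effect passed the test in APC for 18 and in AOM-DSS for 10, with 7 in both and 1 in neither. Of the 16 with a negative difference, 6 had a positive effect in both models and 10 had opposite signs, and the APC effect was the larger for 11. For these, the APC effect passed for 11 and the AOM-DSS effect for 8, with 4 in both and 1 in neither. Over all 563 miRNAs, the effect passed for 123 in APC (21.8%) and for 96 in AOM-DSS (17.1%). APC tumours against AOM-DSS tumours differed for 49 miRNAs (8.7%) and the normal tissues for 19 (3.37%). Among the 38, the tumours of the models differed for 12 of the 22 and 14 of the 16, and the normal tissues for 4 of the 22 and 2 of the 16.

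**Figure D1:**
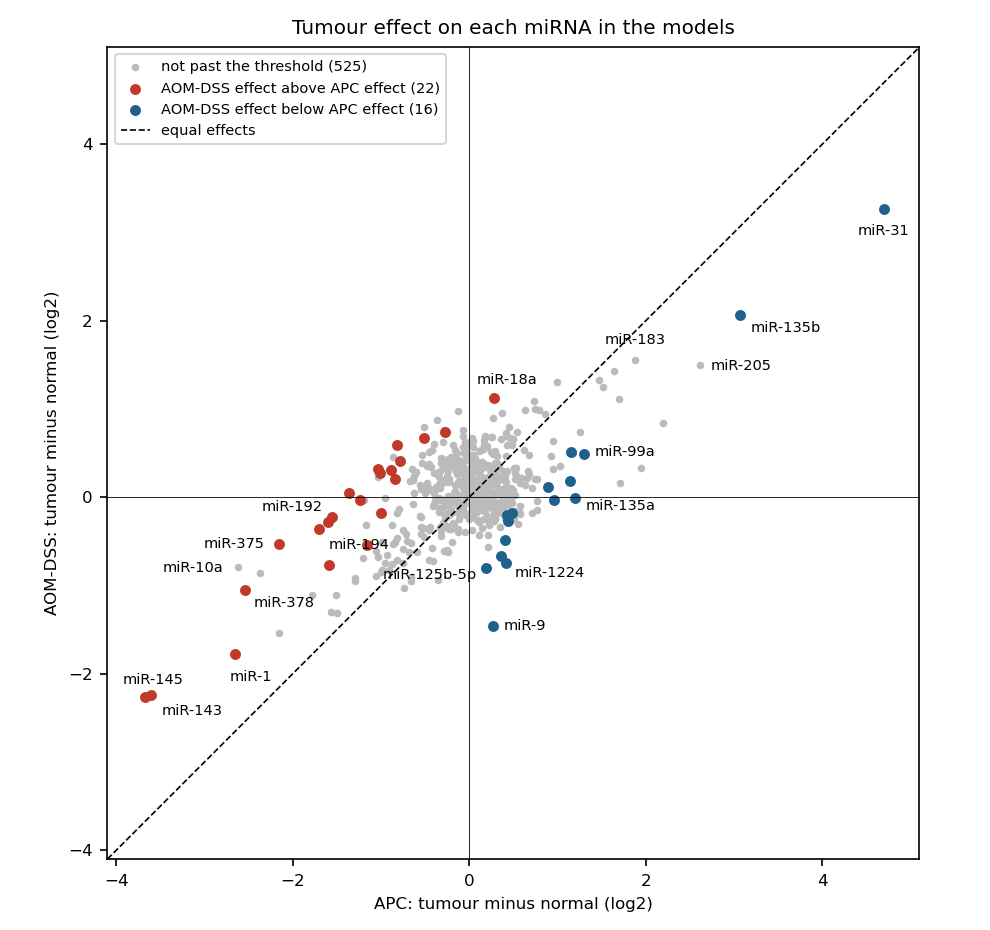
Tumour minus normal on the log2 scale in APC (horizontal axis) against AOM-DSS (vertical axis), 1 point for each of the 563 miRNAs. Red points (22) lie above and blue points (16) below the dashed line of equal effects and passed the test of the difference. miR-145, miR-143 and miR-1 fell and miR-31 and miR-135b rose in both models, by more in APC.

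The split into higher and lower depends on what the libraries are scaled to. Against the geometric mean of the 4 mRNA probes, the median of all differences moved by -0.52, and 33 passed, 2 positive and 31 negative. Relative to the TMM-scaled miRNA total, Rpl19 was higher in tumour tissue by 0.26 in APC and 0.93 in AOM-DSS on the log2 scale. Tumour minus normal in APC and AOM-DSS was -0.24 and 0.58 for Actb, -0.61 and -0.08 for B2m, and 0.40 and 0.55 for Gapdh. Scaled to the 100 highest miRNAs, 17 differences were positive and 24 negative. In the authors' scaled values, 13 were positive and 22 negative. With counts raised to background, 13 were positive and 18 negative, and the median of all differences moved by -0.39, to -0.33. A probe under background in every library takes the difference of the background levels themselves there, which was also -0.33. No sign of the 38 turned under these scalings except for 6 miRNAs near background, named below, when counts were raised to background. The differences below are relative to the miRNA total after TMM scaling, not to the plain total. TMM factors ran from 0.69 to 0.91 in APC normal libraries and from 1.02 to 1.61 in APC tumours. In AOM-DSS they ran from 0.80 to 1.03 and from 0.95 to 1.28.

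The markers of intestinal epithelium (miR-192, miR-194 and miR-375) all had positive differences. This list and those below were chosen with earlier results of these data known, so that their shares describe and are no independent support. Of 3 measured, 3 passed, against 3.91% of all miRNAs, with a median of 1.33 against 0.06. All 3 fell in APC tumours, and 1, miR-194, fell in AOM-DSS tumours, against 71 and 48 of all 563. Their summed level ran from 41020 to 58500 CPM in APC normal mucosa, 12665 to 22029 in APC tumours, 31384 to 49905 in AOM-DSS normal mucosa and 27498 to 35026 in AOM-DSS tumours. APC tumours thus lay below every other library in this sum.

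miR-194 is made with miR-192 from chromosome 19 and again from chromosome 1. miR-194 measured 21476 to 31516 CPM (median 24319.5) in APC normal mucosa, and 6936, 6937, 7074, 7336 and 10849 CPM in the 5 APC tumours. In AOM-DSS tissue, miR-194 measured 15784 to 26562 CPM (median 19072) in normal mucosa and 13421 to 16497 CPM (median 15602) in tumours. The APC groups did not overlap, whereas the AOM-DSS groups did, and the APC tumours lay below all AOM-DSS tumours. For miR-194 the log2 tumour effect was -1.70 ± 0.15 in APC (adjusted p = 3.40e-12) and -0.37 ± 0.13 in AOM-DSS (adjusted p = 0.0433). The difference for miR-194 was 1.33 ± 0.19 (95% interval 0.95 to 1.72, adjusted p = 1.25e-05). miR-194 had 1.25 ± 0.26 within cartridges 1 and 2 (adjusted p = 0.004). Scaled to the mRNA probes it was 0.79 (adjusted p = 0.0629). miR-192 is known to respond to p53. miR-192 measured 15863 to 24353 CPM (median 18888) in APC normal mucosa, and 4907, 5272, 5813, 6082 and 9951 CPM in the 5 APC tumours. In AOM-DSS tissue, miR-192 measured 12960.0 to 20844 CPM (median 17114) in normal mucosa and 11834 to 16318 CPM (median 13258) in tumours. As for miR-194, only the APC groups were separate, and each APC tumour lay below each AOM-DSS tumour. For miR-192 the log2 tumour effect was -1.61 ± 0.16 in APC (adjusted p = 2.35e-10) and -0.28 ± 0.14 in AOM-DSS (adjusted p = 0.207). The difference for miR-192 was 1.33 ± 0.21 (95% interval 0.90 to 1.76, adjusted p = 4.90e-05). miR-192 had 1.36 ± 0.28 within cartridges 1 and 2 (adjusted p = 0.004). Scaled to the mRNA probes it was 0.82 (adjusted p = 0.0629).

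miR-375 is known from pancreatic islets and is also expressed in gut epithelium. miR-375 measured 2631 to 4662 CPM (median 4115) in APC normal mucosa, and 457, 584, 667, 1230.0 and 1418 CPM in the 5 APC tumours. In AOM-DSS tissue, miR-375 measured 1646 to 2639.5 CPM (median 2377) in normal mucosa and 1058 to 2211 CPM (median 1529) in tumours. Every APC tumour lay below every APC normal library, and the AOM-DSS groups overlapped. For miR-375 the log2 tumour effect was -2.16 ± 0.25 in APC (adjusted p = 1.08e-07) and -0.53 ± 0.22 in AOM-DSS (adjusted p = 0.112). The difference for miR-375 was 1.63 ± 0.33 (95% interval 0.96 to 2.31, adjusted p = 0.00241). miR-375 had 1.64 ± 0.40 within cartridges 1 and 2 (adjusted p = 0.0232). AOM-DSS minus APC, the normal libraries differed in miR-375 by -0.78 on the log2 scale (adjusted p = 0.0487) and the tumours by 0.85 (adjusted p = 0.0296). miR-378 is hosted in the gene of the metabolic coactivator PGC-1β. miR-378 measured 3771 to 5922 CPM (median 4516) in APC normal mucosa, and 569, 580.5, 617, 1072 and 1230.0 CPM in the 5 APC tumours. In AOM-DSS tissue, miR-378 measured 2606 to 3484 CPM (median 2974) in normal mucosa and 1129 to 1702 CPM (median 1462) in tumours. Tumours and normal mucosa were separate in both models. For miR-378 the log2 tumour effect was -2.54 ± 0.18 in APC (adjusted p = 4.64e-14) and -1.05 ± 0.16 in AOM-DSS (adjusted p = 2.90e-06). The difference for miR-378 was 1.49 ± 0.23 (95% interval 1.02 to 1.97, adjusted p = 4.65e-05). miR-378 had 1.39 ± 0.31 within cartridges 1 and 2 (adjusted p = 0.00674). The same contrasts for miR-378 were -0.65 in normal libraries (adjusted p = 0.00994) and 0.84 in tumours (adjusted p = 0.00133). miR-375 and miR-378 were the only miRNAs with a positive difference that passed in all 16 alternatives and without each of the 24 libraries in turn.

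Among markers of smooth and other muscle, 3 of 5 passed with a positive difference, against 3.91% of all miRNAs, and the median of the 5 was 0.88 against 0.06. miR-145, miR-143 and miR-1 passed, miR-133a had 0.67 ± 0.27 (adjusted p = 0.138) and miR-133b -0.08 ± 0.27 (adjusted p = 0.908). Of the 5, 4 fell in APC tumours and 4 in AOM-DSS tumours, against 71 and 48 of all 563. The summed level of the list was 172038 to 340301 CPM in APC normal mucosa and 10379 to 24382 in APC tumours, against 146764 to 184664 and 14987 to 48061 in AOM-DSS. In every library this sum was above the background of a single probe, and miR-143 and miR-145 made up most of it. The levels of AOM-DSS tumours overlapped those of APC tumours and reached higher. The part of these markers in the other differences was not tested.

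miR-145 and miR-143 are made from 1 precursor transcript and maintain the contractile state of smooth muscle. miR-145 measured 106296 to 218358 CPM (median 144253) in APC normal mucosa, and 6356, 12494, 12989, 13545 and 14119 CPM in the 5 APC tumours. In AOM-DSS tissue, miR-145 measured 88358 to 115846 CPM (median 94903) in normal mucosa and 9232 to 29046 CPM (median 19653) in tumours. Tumours lay far below normal mucosa in both models, and the lowest level was in an APC tumour. For miR-145 the log2 tumour effect was -3.68 ± 0.25 in APC (adjusted p = 3.93e-12) and -2.26 ± 0.21 in AOM-DSS (adjusted p = 5.21e-09). The difference for miR-145 was 1.41 ± 0.30 (95% interval 0.80 to 2.03, adjusted p = 0.00378). miR-145 had 0.90 ± 0.31 within cartridges 1 and 2 (adjusted p = 0.12). miR-143 measured 59622 to 120333 CPM (median 86803) in APC normal mucosa, and 3581, 7056, 7508, 7702 and 9937 CPM in the 5 APC tumours. In AOM-DSS tissue, miR-143 measured 56799 to 67882 CPM (median 59996) in normal mucosa and 5341 to 18529 CPM (median 12516) in tumours. Again neither model's groups overlapped. For miR-143 the log2 tumour effect was -3.61 ± 0.28 in APC (adjusted p = 2.35e-10) and -2.24 ± 0.24 in AOM-DSS (adjusted p = 1.03e-07). The difference for miR-143 was 1.36 ± 0.34 (95% interval 0.67 to 2.06, adjusted p = 0.0148). miR-143 had 0.80 ± 0.33 within cartridges 1 and 2 (adjusted p = 0.176). Both missed the threshold within the cartridges, with smaller estimates. Scaled to the mRNA probes, miR-145 was at 0.87 (adjusted p = 0.179) and miR-143 at 0.81 (adjusted p = 0.25). The call for miR-143 was also lost with background subtracted. miR-1, a miRNA of heart and skeletal muscle, was above background in 0 of 5 APC tumours and 2 of 6 AOM-DSS tumours. miR-1 measured 451 to 971 CPM (median 670.1) in APC normal mucosa, and 77.9, 106, 109, 121 and 141 CPM in the 5 APC tumours. In AOM-DSS tissue, miR-1 measured 447 to 713 CPM (median 507) in normal mucosa and 107 to 207 CPM (median 169.7) in tumours. The tumour levels in both models were near or under background, so that both falls are understated. For miR-1 the log2 tumour effect was -2.66 ± 0.21 in APC (adjusted p = 4.46e-13) and -1.78 ± 0.19 in AOM-DSS (adjusted p = 2.98e-09). The difference for miR-1 was 0.88 ± 0.28 (95% interval 0.31 to 1.45, adjusted p = 0.0473). miR-1 had 0.64 ± 0.37 within cartridges 1 and 2 (adjusted p = 0.32). With counts raised to background its difference was 0.30 (adjusted p = 0.292). The call for miR-1 held without 8 of the 24 libraries and in 5 of 16 alternatives.

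**Figure D2:**
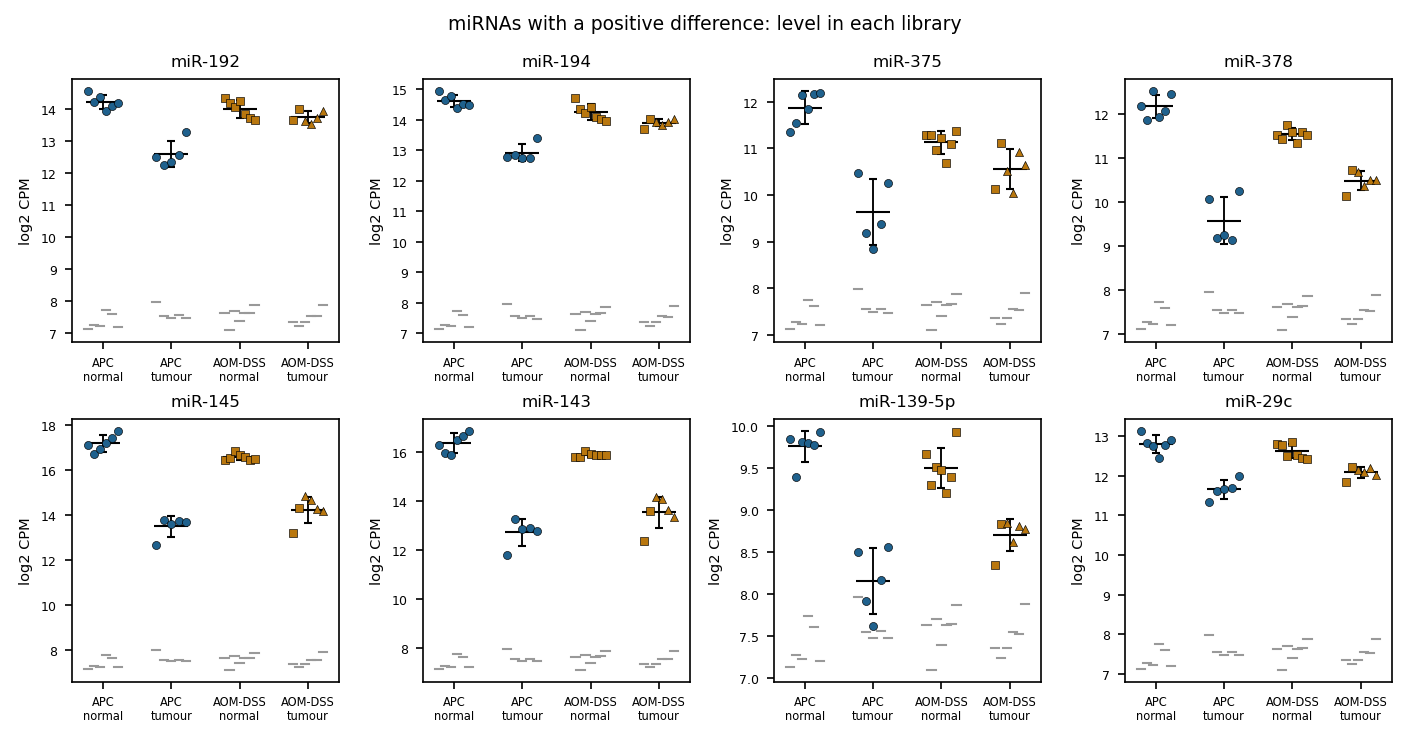
Log2 CPM of 8 miRNAs with a positive difference in each of the 24 libraries. Points are libraries (circles cartridge 1, squares cartridge 2, triangles cartridge 3), black bars the group mean with its SD, and grey dashes each library's background. For miR-192 and miR-194 the 5 APC tumours lie below all other libraries, whereas AOM-DSS tumours overlap their normal group.

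miR-139-5p and miR-29c fell in tumours of both models, by less in AOM-DSS. miR-139-5p is often lowered in colorectal cancer. miR-139-5p measured 674 to 976 CPM (median 895) in APC normal mucosa, and 197, 242, 286, 364 and 377 CPM in the 5 APC tumours. In AOM-DSS tissue, miR-139-5p measured 592 to 977 CPM (median 715) in normal mucosa and 326 to 462 CPM (median 444) in tumours. Tumour and normal libraries were separate in both models. For miR-139-5p the log2 tumour effect was -1.58 ± 0.17 in APC (adjusted p = 8.54e-10) and -0.77 ± 0.15 in AOM-DSS (adjusted p = 2.17e-04). The difference for miR-139-5p was 0.81 ± 0.23 (95% interval 0.36 to 1.27, adjusted p = 0.0195). miR-139-5p had 0.65 ± 0.30 within cartridges 1 and 2 (adjusted p = 0.213). miR-29c targets collagen transcripts. miR-29c measured 5570.3 to 9024 CPM (median 7211) in APC normal mucosa, and 2578, 3147, 3229.8, 3304 and 4055 CPM in the 5 APC tumours. In AOM-DSS tissue, miR-29c measured 5517 to 7347 CPM (median 5910.3) in normal mucosa and 3677 to 4774 CPM (median 4439) in tumours. The groups of neither model overlapped. For miR-29c the log2 tumour effect was -1.15 ± 0.14 in APC (adjusted p = 8.72e-09) and -0.54 ± 0.12 in AOM-DSS (adjusted p = 0.00113). The difference for miR-29c was 0.62 ± 0.18 (95% interval 0.25 to 0.98, adjusted p = 0.0274). miR-29c had 0.53 ± 0.25 within cartridges 1 and 2 (adjusted p = 0.224). The call for miR-29c was also lost in 8 of 16 alternatives and without APC normal 1, AOM-DSS normal 3 or AOM-DSS normal 5. The other members of the miR-29 family, miR-29a and miR-29b, had differences of 0.06 ± 0.19 (adjusted p = 0.892) and 0.21 ± 0.18 (adjusted p = 0.535). miR-196a, located in the Hox clusters, measured 979 to 1572 CPM (median 1072) in APC normal mucosa and 500.2, 518, 531, 639.9 and 723 CPM in APC tumours. In AOM-DSS tissue, miR-196a measured 922 to 1821 CPM (median 978) in normal mucosa and 803 to 1106 CPM (median 939) in tumours. Separation of tumours from normal mucosa was seen in APC but not in AOM-DSS. For miR-196a the log2 tumour effect was -1.00 ± 0.17 in APC (adjusted p = 1.44e-05) and -0.18 ± 0.16 in AOM-DSS (adjusted p = 0.507). The difference for miR-196a was 0.83 ± 0.23 (95% interval 0.36 to 1.29, adjusted p = 0.0195). miR-196a had 0.78 ± 0.30 within cartridges 1 and 2 (adjusted p = 0.157). Scaled to the mRNA probes, the differences were 0.35 for miR-139-5p (adjusted p = 0.494), 0.05 for miR-29c (adjusted p = 0.922) and 0.27 for miR-196a (adjusted p = 0.603), none past the threshold.

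miR-18a, a member of the growth-promoting miR-17-92 cluster, was the only one of the 22 that was positive in both models. miR-18a measured 205 to 291 CPM (median 235) in APC normal mucosa, and 258, 272, 306, 308 and 336 CPM in the 5 APC tumours. In AOM-DSS tissue, miR-18a measured 151 to 264 CPM (median 173) in normal mucosa and 341 to 614 CPM (median 387) in tumours. The AOM-DSS tumours all lay above AOM-DSS normal mucosa, where 4 of 7 libraries exceeded background, and the APC groups overlapped. For miR-18a the log2 tumour effect was 0.28 ± 0.17 in APC (adjusted p = 0.279) and 1.13 ± 0.16 in AOM-DSS (adjusted p = 1.02e-06). The difference for miR-18a was 0.85 ± 0.24 (95% interval 0.36 to 1.33, adjusted p = 0.0232). miR-18a had 0.68 ± 0.28 within cartridges 1 and 2 (adjusted p = 0.176). Without AOM-DSS tumour 3, which held the highest level (614 CPM), or without APC normal 1, it missed the threshold. The call for miR-18a was also lost with counts raised to background (0.67, adjusted p = 0.0658) and scaled to the mRNA probes (0.26, adjusted p = 0.658). Background subtraction and the authors' scaled values lost it too. Of 11 measured probes of miR-17-92 and its paralogue clusters, 1 passed, against 3.91% of all miRNAs. All 11 had a positive difference, as did 309 of all 563. Their median of 0.36 turned to -0.21 when scaled to the mRNA probes. In AOM-DSS tumours 8 of the 11 rose and in APC tumours 5, against 48 and 52 of all 563.

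Several probes with a positive difference are no classical miRNAs or lay near background. miR-720 is now regarded as a tRNA fragment, and its probe took 8.36% to 34.6% of a library's miRNA counts. miR-720 measured 269804 to 370643 CPM (median 312322) in APC normal mucosa, and 62625, 78085, 89984, 99705 and 209513 CPM in the 5 APC tumours. In AOM-DSS tissue, miR-720 measured 143119 to 431559 CPM (median 205049) in normal mucosa and 143421 to 287776 CPM (median 185318) in tumours. It was lower in each APC tumour than in each APC normal library, and the AOM-DSS groups overlapped. For miR-720 the log2 tumour effect was -1.55 ± 0.30 in APC (adjusted p = 3.80e-04) and -0.22 ± 0.27 in AOM-DSS (adjusted p = 0.667). The difference for miR-720 was 1.33 ± 0.40 (95% interval 0.51 to 2.15, adjusted p = 0.0448). miR-720 had 1.47 ± 0.47 within cartridges 1 and 2 (adjusted p = 0.104). This call was lost without any 1 of 18 libraries, and 37 differences passed in a table without miR-720. miR-1937c and miR-2134, listed with it as sequences like tRNA or rRNA, had differences of 1.36 ± 0.34 (adjusted p = 0.0148) and 1.40 ± 0.32 (adjusted p = 0.0043). miR-1937c had 1.52 ± 0.38 within cartridges 1 and 2 (adjusted p = 0.0232). miR-2134 had 1.35 ± 0.38 within cartridges 1 and 2 (adjusted p = 0.0417). Scaled to the mRNA probes, miR-1937c was at 0.76 (adjusted p = 0.13) and miR-2134 at 0.94 (adjusted p = 0.102). For miR-2134 the normal libraries of the models differed by -1.25 (adjusted p = 0.000257) and the tumours by 0.15 (adjusted p = 0.778). Of 17 measured probes of this kind, 3 passed, against 3.91% of all miRNAs. The median over the 17 was -0.13, and 0.02 under the replicate block.

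miR-741, an X-linked miRNA of the testis, was above background in all 24 libraries. Its lowest level was in APC tumour 3 and its highest in AOM-DSS normal 7, as for miR-720 (62625 and 431559 CPM). Whether its probe counts molecules apart from those of the abundant miR-720 probe was not tested. miR-741 measured 744 to 918 CPM (median 796) in APC normal mucosa, and 239.9, 282, 340.1, 359 and 512 CPM in the 5 APC tumours. In AOM-DSS tissue, miR-741 measured 338 to 950.2 CPM (median 586) in normal mucosa and 443 to 780.4 CPM (median 501) in tumours. All APC tumours lay below the APC normal libraries, and the AOM-DSS groups overlapped. For miR-741 the log2 tumour effect was -1.23 ± 0.20 in APC (adjusted p = 8.18e-06) and -0.04 ± 0.19 in AOM-DSS (adjusted p = 0.939). The difference for miR-741 was 1.20 ± 0.27 (95% interval 0.65 to 1.75, adjusted p = 0.0043). miR-741 had 1.35 ± 0.34 within cartridges 1 and 2 (adjusted p = 0.0213). Scaled to the mRNA probes, miR-741 was at 0.71 (adjusted p = 0.206). miR-669f had a difference of 1.19 ± 0.26 (adjusted p = 0.00359) but exceeded background in only 7 of 24 libraries, and with counts raised to background its difference was 0.02 (adjusted p = 0.917). miR-669f had 1.35 ± 0.32 within cartridges 1 and 2 (adjusted p = 0.0159). For miR-449b, miR-486, miR-139-3p, miR-1950, miR-503 and miR-743a, the median of no group exceeded background. Their differences ran from 1.02 to 1.41, and with counts raised to background they ran from -0.33 to -0.17. Where a probe lies under background in every library, the raised value is that of the background itself (-0.33). Of the 6, 4 exceeded background in 0 of 24 libraries, and miR-486 and miR-743a did so in 2 APC normal libraries and 1 AOM-DSS tumour each. All 6 are counted among the 22.

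The miR-99, miR-100 and miR-125 families had negative differences throughout. Of 5 measured members, listed with earlier results of these data known, 5 passed, against 2.84% of all miRNAs, with a median of -0.81. These are the miRNAs printed above with the seeds ACCCGUA and CCCUGAG. Both families are known to restrain growth signals in some tissues, miR-99 and miR-100 through mTOR, and to promote growth in others. let-7e, from the cluster of miR-99b and miR-125a, passed too. The members reached a negative difference in different ways: miR-99a and miR-125a-5p rose in both models and by more in APC, miR-99b and let-7e rose in APC, and miR-100 and miR-125b-5p fell in AOM-DSS.

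miR-99a measured 877 to 1563 CPM (median 1317) in APC normal mucosa, and 2243, 2418, 2427, 3719 and 4371 CPM in the 5 APC tumours. In AOM-DSS tissue, miR-99a measured 924 to 1816 CPM (median 1529) in normal mucosa and 1628 to 2325 CPM (median 2177) in tumours. The APC tumours lay above APC normal mucosa, and the AOM-DSS groups overlapped. For miR-99a the log2 tumour effect was 1.30 ± 0.17 in APC (adjusted p = 1.35e-07) and 0.49 ± 0.16 in AOM-DSS (adjusted p = 0.0269). The difference for miR-99a was -0.81 ± 0.24 (95% interval -1.29 to -0.33, adjusted p = 0.0274). miR-99a had -0.71 ± 0.32 within cartridges 1 and 2 (adjusted p = 0.212). miR-99b shares its seed with miR-99a. miR-99b measured 906 to 1468 CPM (median 1118) in APC normal mucosa, and 967, 2276, 2385, 2423 and 2472 CPM in the 5 APC tumours. In AOM-DSS tissue, miR-99b measured 1029 to 1397 CPM (median 1293) in normal mucosa and 1269 to 1485 CPM (median 1381) in tumours. The lowest of these APC tumours, tumour 1, lay among the normal libraries, and the AOM-DSS groups overlapped. For miR-99b the log2 tumour effect was 0.89 ± 0.17 in APC (adjusted p = 7.33e-05) and 0.12 ± 0.16 in AOM-DSS (adjusted p = 0.696). The difference for miR-99b was -0.77 ± 0.23 (95% interval -1.24 to -0.31, adjusted p = 0.0312). miR-99b had -0.77 ± 0.31 within cartridges 1 and 2 (adjusted p = 0.165). miR-125a-5p is made beside miR-99b. miR-125a-5p measured 2231 to 3309 CPM (median 2785) in APC normal mucosa, and 5631, 5883, 5947, 6145 and 6852 CPM in the 5 APC tumours. In AOM-DSS tissue, miR-125a-5p measured 2162 to 3371 CPM (median 3067) in normal mucosa and 3164 to 5216 CPM (median 4221) in tumours. Only in APC were the groups separate. For miR-125a-5p the log2 tumour effect was 1.15 ± 0.14 in APC (adjusted p = 1.29e-08) and 0.51 ± 0.13 in AOM-DSS (adjusted p = 0.00271). The difference for miR-125a-5p was -0.64 ± 0.19 (95% interval -1.01 to -0.26, adjusted p = 0.0274). miR-125a-5p had -0.64 ± 0.25 within cartridges 1 and 2 (adjusted p = 0.165). let-7e lies between them in the cluster. let-7e measured 1754 to 2332 CPM (median 2271) in APC normal mucosa, and 2384, 2779, 3007, 3367 and 3411 CPM in the 5 APC tumours. In AOM-DSS tissue, let-7e measured 1636 to 2403 CPM (median 2253) in normal mucosa and 1787 to 2267 CPM (median 1897) in tumours. All APC tumours lay above the APC normal libraries, by a narrow margin, and the AOM-DSS groups overlapped. For let-7e the log2 tumour effect was 0.48 ± 0.13 in APC (adjusted p = 0.00566) and -0.18 ± 0.12 in AOM-DSS (adjusted p = 0.379). The difference for let-7e was -0.66 ± 0.18 (95% interval -1.02 to -0.30, adjusted p = 0.0185). let-7e had -0.69 ± 0.25 within cartridges 1 and 2 (adjusted p = 0.137). The 3 miRNAs of this cluster thus moved alike, with differences of -0.77, -0.66 and -0.64.

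miR-100 and miR-125b-5p, which share a stretch of chromosome 9, showed the reverse arrangement. miR-100 measured 459.6 to 785 CPM (median 630.1) in APC normal mucosa, and 681, 746, 769, 802 and 906 CPM in the 5 APC tumours. In AOM-DSS tissue, miR-100 measured 612 to 897 CPM (median 714) in normal mucosa and 321 to 535 CPM (median 454) in tumours. The AOM-DSS tumours lay below all AOM-DSS normal libraries, and the APC groups overlapped. For miR-100 the log2 tumour effect was 0.36 ± 0.16 in APC (adjusted p = 0.104) and -0.67 ± 0.15 in AOM-DSS (adjusted p = 8.31e-04). The difference for miR-100 was -1.03 ± 0.21 (95% interval -1.46 to -0.59, adjusted p = 0.002). miR-100 had -1.33 ± 0.29 within cartridges 1 and 2 (adjusted p = 0.00674). miR-125b-5p, the most abundant of the families here, also comes from chromosome 16 beside miR-99a. miR-125b-5p measured 13312 to 24379.6 CPM (median 17164) in APC normal mucosa, and 14549.7, 16572, 20779, 23962 and 25273 CPM in the 5 APC tumours. In AOM-DSS tissue, miR-125b-5p measured 20522 to 26508 CPM (median 23428) in normal mucosa and 10429 to 18128 CPM (median 13285) in tumours. Separation was again seen in AOM-DSS alone. For miR-125b-5p the log2 tumour effect was 0.19 ± 0.15 in APC (adjusted p = 0.422) and -0.81 ± 0.14 in AOM-DSS (adjusted p = 3.62e-05). The difference for miR-125b-5p was -1.00 ± 0.21 (95% interval -1.42 to -0.58, adjusted p = 0.002). miR-125b-5p had -1.08 ± 0.29 within cartridges 1 and 2 (adjusted p = 0.0232). The calls for miR-100 and miR-125b-5p held in all 16 alternatives and without each of the 24 libraries in turn. Those for miR-99a, miR-99b, miR-125a-5p and let-7e were lost within cartridges 1 and 2, at like estimates and larger errors. Leaving out single libraries ended the call for miR-99b in 10 of 24 fits and for miR-99a and miR-125a-5p in 5 each, but for let-7e in 0.

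miR-31 is a miRNA that colorectal cancers often raise. Here its fitted rise was the largest of the 563 in tumours of both models, and its difference was negative. miR-31 measured 232 to 322 CPM (median 263) in APC normal mucosa, and 2265, 5744, 8961, 9139.7 and 9301 CPM in the 5 APC tumours. In AOM-DSS tissue, miR-31 measured 132 to 359 CPM (median 227) in normal mucosa and 1692 to 3288 CPM (median 2407) in tumours. In both models every tumour lay above every normal library, and the lowest APC tumour was tumour 1, within the range of the AOM-DSS tumours. For miR-31 the log2 tumour effect was 4.70 ± 0.29 in APC (adjusted p = 5.39e-13) and 3.27 ± 0.26 in AOM-DSS (adjusted p = 3.32e-10). The difference for miR-31 was -1.43 ± 0.36 (95% interval -2.18 to -0.69, adjusted p = 0.0161). miR-31 had -1.39 ± 0.44 within cartridges 1 and 2 (adjusted p = 0.0845). The fitted rises were 26-fold in APC and 9.63-fold in AOM-DSS. The call for miR-31 held without each of the 24 libraries.

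miR-135b and miR-135a share a seed and are known to target the transcript of Apc, and both passed with a negative difference. miR-135b measured 52.3 to 115 CPM (median 81.2) in APC normal mucosa, and 562, 616, 623, 675 and 812 CPM in the 5 APC tumours. In AOM-DSS tissue, miR-135b measured 42.5 to 121 CPM (median 73.3) in normal mucosa and 247 to 365 CPM (median 308) in tumours. In both models all normal libraries lay at background and all tumours above it, and each APC tumour lay above each AOM-DSS tumour. For miR-135b the log2 tumour effect was 3.07 ± 0.20 in APC (adjusted p = 2.85e-15) and 2.07 ± 0.19 in AOM-DSS (adjusted p = 3.00e-10). The difference for miR-135b was -1.00 ± 0.29 (95% interval -1.58 to -0.42, adjusted p = 0.0262). miR-135b had -1.00 ± 0.35 within cartridges 1 and 2 (adjusted p = 0.132). The rises of miR-135b are understated by background in the normal tissue. With counts raised to background the difference was -1.34 (adjusted p = 5.34e-07). All normal libraries take their background level there, and a probe under background throughout has -0.33. The more negative value therefore includes the difference between background levels. The tumours alone differed by -1.14 (AOM-DSS minus APC, adjusted p = 8.58e-06) and the normal libraries by -0.14 (adjusted p = 0.83). Without APC normal 2, APC normal 5 or AOM-DSS normal 2 the difference missed the threshold.

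For miR-135a the separation was confined to APC. miR-135a measured 137 to 215 CPM (median 182) in APC normal mucosa, and 266, 337, 366, 423 and 659 CPM in the 5 APC tumours. In AOM-DSS tissue, miR-135a measured 168 to 343 CPM (median 201) in normal mucosa and 170.2 to 297 CPM (median 196) in tumours. APC tumours lay above APC normal mucosa, whereas the AOM-DSS groups overlapped, with 4 of 7 normal and 3 of 6 tumour libraries above background. For miR-135a the log2 tumour effect was 1.20 ± 0.20 in APC (adjusted p = 1.06e-05) and -0.01 ± 0.20 in AOM-DSS (adjusted p = 0.988). The difference for miR-135a was -1.21 ± 0.28 (95% interval -1.78 to -0.64, adjusted p = 0.00479). miR-135a had -0.97 ± 0.36 within cartridges 1 and 2 (adjusted p = 0.138). Every leave-one-out fit kept the call, and the values ran from -1.33 to -0.96.

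miR-9, best known from neural progenitors, had the largest negative difference of all. miR-9 measured 187 to 293 CPM (median 225) in APC normal mucosa, and 124, 242, 295, 299 and 388 CPM in the 5 APC tumours. In AOM-DSS tissue, miR-9 measured 238 to 396 CPM (median 258) in normal mucosa and 77.8 to 138 CPM (median 94.9) in tumours. The 6 AOM-DSS tumours were all at background and below the 7 AOM-DSS normal libraries, all of which exceeded it, while the APC groups overlapped. For miR-9 the log2 tumour effect was 0.27 ± 0.19 in APC (adjusted p = 0.364) and -1.46 ± 0.20 in AOM-DSS (adjusted p = 4.52e-07). The difference for miR-9 was -1.73 ± 0.28 (95% interval -2.30 to -1.16, adjusted p = 4.90e-05). miR-9 had -1.98 ± 0.39 within cartridges 1 and 2 (adjusted p = 0.00385). The AOM-DSS fall is understated, since background bounds the tumour level. With counts raised to background the difference was -1.00 (adjusted p = 0.000276). Of the other neural markers, miR-124, miR-128 and miR-137, none passed, with differences of -0.34, -0.36 and 0.61 (adjusted p = 0.415, 0.39 and 0.224).

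miR-1224, a miRNA processed from an intron, differed mainly through its normal level. miR-1224 measured 405 to 739 CPM (median 541) in APC normal mucosa, and 653, 654, 713, 747 and 894 CPM in the 5 APC tumours. In AOM-DSS tissue, miR-1224 measured 1795 to 2333 CPM (median 2161) in normal mucosa and 744 to 1860.2 CPM (median 1229) in tumours. All AOM-DSS normal libraries lay above all APC libraries, tumours included, and in neither model were tumour and normal separate. For miR-1224 the log2 tumour effect was 0.41 ± 0.17 in APC (adjusted p = 0.0913) and -0.74 ± 0.16 in AOM-DSS (adjusted p = 4.55e-04). The difference for miR-1224 was -1.15 ± 0.23 (95% interval -1.62 to -0.68, adjusted p = 0.00171). miR-1224 had -1.61 ± 0.28 within cartridges 1 and 2 (adjusted p = 0.00105). AOM-DSS minus APC, miR-1224 was 1.95 in normal mucosa (adjusted p = 1.18e-11) and 0.80 in tumours (adjusted p = 0.00165). The models' normal libraries ran on different cartridges, so that model and cartridge cannot be told apart in these values.

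**Figure D3:**
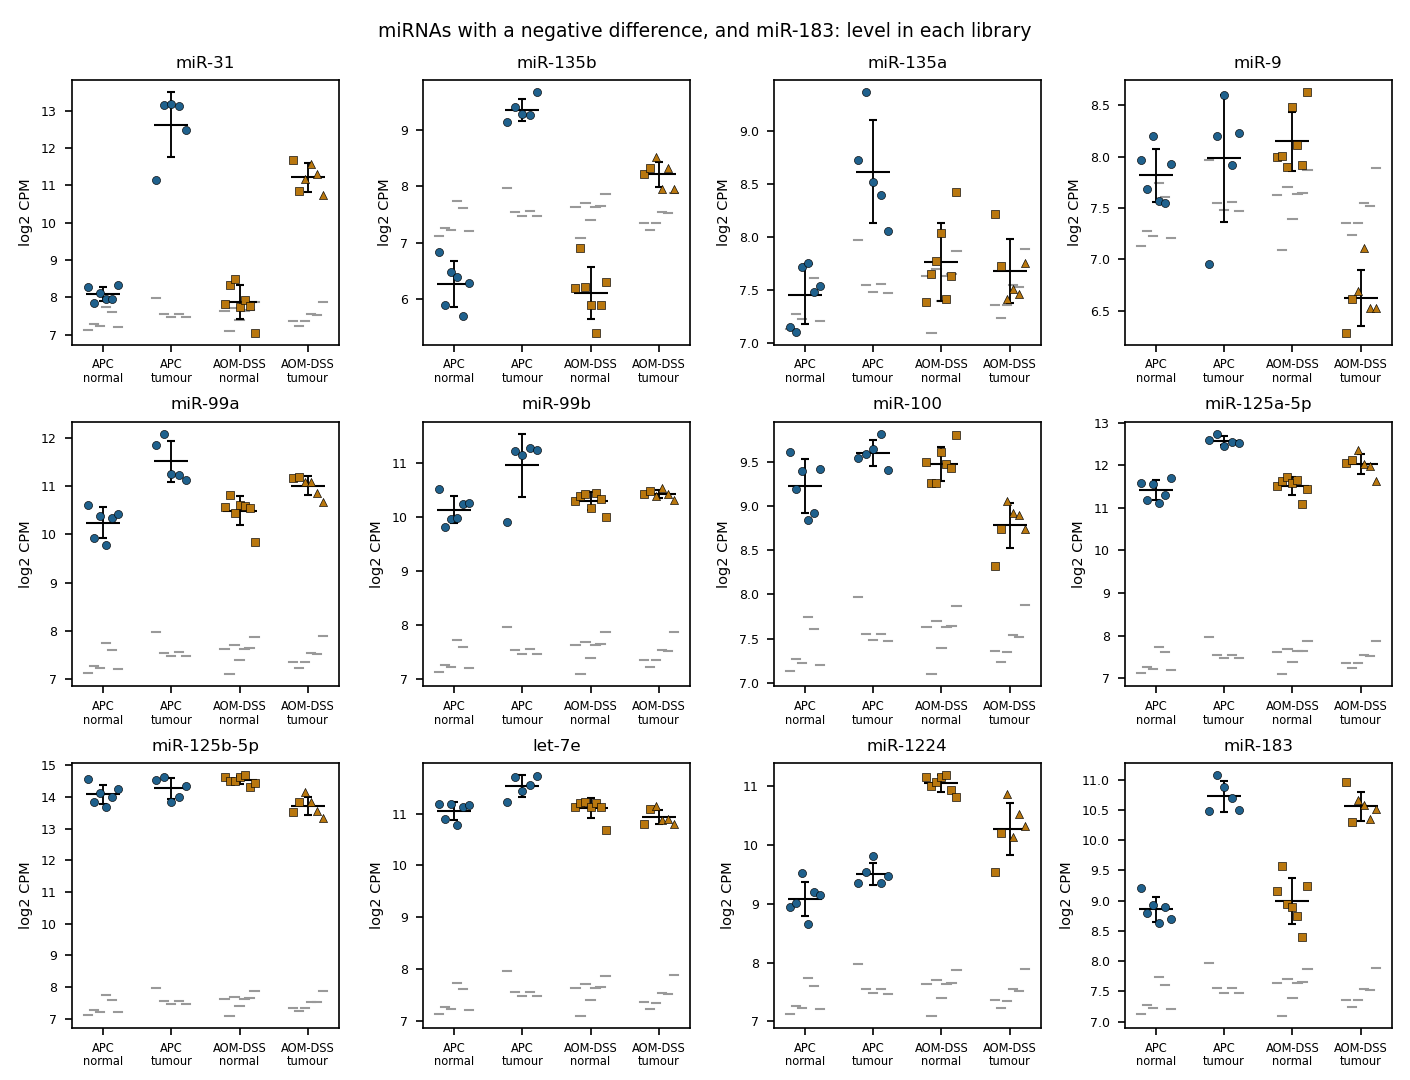
Log2 CPM of 11 miRNAs with a negative difference, and of miR-183, which had none past the threshold, in each of the 24 libraries. Symbols are as in the plot of miR-192 and its companions, with grey dashes for each library's background. miR-9 sits at background in all 6 AOM-DSS tumours, miR-100 and miR-125b-5p are lower in AOM-DSS tumours than in AOM-DSS normal mucosa, and miR-183 has like levels in the tumours of both models.

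Of 6 measured markers of fibroblasts and mesenchyme, 4 passed with a negative difference, against 2.84% of all miRNAs, and the median of the 6 was -0.76 against 0.06. Besides miR-99a, miR-100 and miR-125b-5p, which were already counted with their families, this was miR-199a-3p, whose sequence is printed above. miR-199a-3p measured 3297 to 4526 CPM (median 3867) in APC normal mucosa, and 4666, 4920.3, 4994, 5428 and 6313 CPM in the 5 APC tumours. In AOM-DSS tissue, miR-199a-3p measured 3484 to 4532 CPM (median 4096) in normal mucosa and 2831 to 4243 CPM (median 3265) in tumours. APC tumours lay just above APC normal mucosa, and the AOM-DSS groups overlapped. For miR-199a-3p the log2 tumour effect was 0.44 ± 0.13 in APC (adjusted p = 0.0112) and -0.27 ± 0.12 in AOM-DSS (adjusted p = 0.131). The difference for miR-199a-3p was -0.71 ± 0.18 (95% interval -1.07 to -0.35, adjusted p = 0.0111). miR-199a-3p had -0.69 ± 0.25 within cartridges 1 and 2 (adjusted p = 0.138). Its opposite arm miR-199a-5p had -0.49 ± 0.20 (adjusted p = 0.13) and miR-214 of the same transcript -0.53 ± 0.23 (adjusted p = 0.177). The summed level of the list was 21113 to 36001 CPM in APC normal mucosa and 26535 to 41799 in APC tumours, against 29366 to 37114 and 18141 to 27751 in AOM-DSS. The AOM-DSS tumours thus lay below the AOM-DSS normal libraries in this sum, of which miR-125b-5p made up most. In AOM-DSS tumours miR-100 and miR-125b-5p fell, whereas miR-99a rose (0.49, adjusted p = 0.0269). The part of this sum in the single differences was not tested.

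The endothelial miR-126-3p passed with -0.63 ± 0.17 (adjusted p = 0.0171), and its opposite arm miR-126-5p had -0.52 ± 0.21 (adjusted p = 0.13). miR-126-3p had -0.60 ± 0.25 within cartridges 1 and 2 (adjusted p = 0.176). Its log2 tumour effect was 0.43 ± 0.12 in APC (adjusted p = 0.00859) and -0.20 ± 0.12 in AOM-DSS (adjusted p = 0.293). AOM-DSS minus APC, miR-126-3p was 0.50 in normal mucosa (adjusted p = 0.00812) and -0.13 in tumours (adjusted p = 0.624). The normal libraries of the models ran on different cartridges. Its call was also lost with counts raised to background (adjusted p = 0.0712) and under the replicate block. miR-140, known from cartilage, rose in APC tumours. miR-140 measured 590.3 to 934 CPM (median 803) in APC normal mucosa, and 1408, 1573, 1755, 1795 and 2062 CPM in the 5 APC tumours. In AOM-DSS tissue, miR-140 measured 607 to 1208 CPM (median 1042) in normal mucosa and 949.5 to 1810.1 CPM (median 1072) in tumours. Its APC groups were separate and its AOM-DSS groups overlapped. For miR-140 the log2 tumour effect was 1.14 ± 0.17 in APC (adjusted p = 9.52e-07) and 0.18 ± 0.15 in AOM-DSS (adjusted p = 0.497). The difference for miR-140 was -0.96 ± 0.23 (95% interval -1.42 to -0.50, adjusted p = 0.00615). miR-140 had -0.75 ± 0.30 within cartridges 1 and 2 (adjusted p = 0.165). miR-708, hosted in the teneurin gene Tenm4, had a difference of -0.99 ± 0.27 (adjusted p = 0.0195), with 1 of 7 normal and 1 of 6 tumour libraries of AOM-DSS above background. miR-708 had -1.15 ± 0.35 within cartridges 1 and 2 (adjusted p = 0.0662). miR-497 had -0.89 ± 0.27 (adjusted p = 0.0371), with neither tumour effect past the threshold, and kept its call in 10 of the 24 fits that left out 1 library. miR-497 had -0.71 ± 0.34 within cartridges 1 and 2 (adjusted p = 0.227). Its cluster partner miR-195 had -0.58 ± 0.26 (adjusted p = 0.184).

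Many miRNAs changed in tumours with no difference past the threshold. The miR-183 cluster (miR-182, miR-183 and miR-96), which is active in sensory organs and raised in many cancers, rose in both models for 3 of 3 members. Of these differences 0 passed in edgeR, 0 had an unadjusted p under 0.05 and 0 passed in DESeq2. miR-183 measured 396 to 589 CPM (median 459) in APC normal mucosa, and 1422, 1447, 1664, 1882 and 2159 CPM in the 5 APC tumours. In AOM-DSS tissue, miR-183 measured 339 to 757 CPM (median 492) in normal mucosa and 1263 to 1985 CPM (median 1494) in tumours. Tumours and normal mucosa were separate in both models, at like levels. For miR-183 the log2 tumour effect was 1.88 ± 0.17 in APC (adjusted p = 2.61e-11) and 1.56 ± 0.16 in AOM-DSS (adjusted p = 1.32e-09). The difference for miR-183 was -0.32 ± 0.24 (95% interval -0.80 to 0.16, adjusted p = 0.475). miR-96 had a difference of -0.27 ± 0.20 (95% interval -0.68 to 0.15, adjusted p = 0.499) and miR-182 one of 0.31 ± 0.31 (-0.32 to 0.95, adjusted p = 0.606). These intervals still allow differences of up to 0.95 in size. miR-203 of stratified epithelium rose in both, with a difference of 0.08 ± 0.32 (-0.57 to 0.74, adjusted p = 0.908) whose sign turned without APC tumour 1 (-0.15) or APC normal 1 (-0.10). miR-205, also squamous, had -1.12 ± 0.43 (-2.01 to -0.23, adjusted p = 0.13) in the fit over all libraries. It passed within cartridges 1 and 2 (-1.52, adjusted p = 0.03), in DESeq2 (-1.14, adjusted p = 0.0469), under the background filter (-1.15, adjusted p = 0.0353), under the replicate block (-1.29, adjusted p = 0.0149) and without AOM-DSS tumour 3 (-1.45, adjusted p = 0.0156).

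The largest difference of all belonged to miR-10a and did not pass. miR-10a measured 1503 to 10240.0 CPM (median 2289) in APC normal mucosa, and 387, 399.8, 439, 705 and 1072 CPM in the 5 APC tumours. In AOM-DSS tissue, miR-10a measured 1201 to 3102 CPM (median 1412) in normal mucosa and 624 to 2101 CPM (median 838) in tumours. One APC normal library (normal 3) reached 10240.0 CPM, over a group median of 2289. The difference for miR-10a was 1.83 ± 0.64 (0.49 to 3.17, adjusted p = 0.098), and that of its relative miR-10b was 1.52 ± 0.63 (0.20 to 2.83, adjusted p = 0.168). The difference for miR-10a passed without APC tumour 1, in DESeq2 and under the background filter. miR-10a had 2.28 ± 0.78 within cartridges 1 and 2 (adjusted p = 0.138). Both miRNAs lie in Hox clusters, like miR-196a.

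AOM-DSS is the model with a colitis agent. Of 10 measured inflammation-responsive miRNAs 0 passed in edgeR, with 3 at an unadjusted p under 0.05 and 1 called by DESeq2. Of 8 leukocyte markers 0 passed, with 3 at an unadjusted p under 0.05 and 2 by DESeq2. The medians of both lists were -0.36 and -0.32. The myeloid miR-223 had -0.51 ± 0.33 (-1.20 to 0.17, adjusted p = 0.41), miR-21 -0.45 ± 0.21 (-0.88 to -0.03, adjusted p = 0.195), miR-155 -0.52 ± 0.23 (-0.99 to -0.06, adjusted p = 0.177) and the lymphocyte miR-150 1.16 ± 0.60 (-0.09 to 2.40, adjusted p = 0.277). miR-142-5p had 0.56 ± 0.19 (adjusted p = 0.0572) and passed in 5 of 16 alternatives, DESeq2 among them, and without APC normal 2 or APC tumour 1. With negative differences, miR-181a passed in 6 of 16 alternatives and miR-132 in 5, DESeq2 among them for both. miR-155, also negative, passed in 2. Without APC tumour 1, miR-181a and miR-155 passed as well. The summed level of the 8 leukocyte markers ran from 15829 to 30307 CPM in APC normal mucosa, 19025 to 25990 in APC tumours, 22302 to 43002 in AOM-DSS normal mucosa and 20702 to 37726 in AOM-DSS tumours. The 4 ranges overlapped. Of the erythrocyte markers miR-144, miR-451 and miR-486, 1 passed, the miR-486 near background described above, and the others had 0.87 and 0.70 (adjusted p = 0.137 and 0.302) in the fit over all libraries. miR-144 passed within cartridges 1 and 2 (1.38, adjusted p = 0.0232), with cartridge 3 as a term (1.42, adjusted p = 0.0178) and without AOM-DSS normal 4 (1.07, adjusted p = 0.0363).

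All 5 members of the epithelial miR-200 family, which holds cells in the epithelial state, had positive differences, as did 309 of all 563 miRNAs. The family's median was 0.46 (-0.08 scaled to the mRNA probes). Of the 5, 0 passed in edgeR, 3 had an unadjusted p under 0.05 and 0 passed in DESeq2. miR-141 came nearest, with 0.67 ± 0.22 (adjusted p = 0.0615), and passed in 6 of 16 alternatives and without AOM-DSS normal 7 or APC tumour 2. In the Dlk1-Dio3 imprinted cluster 0 of 62 passed in edgeR and 0 in DESeq2, with 5 at an unadjusted p under 0.05 (median 0.08, of either sign by scaling), while 16 fell in APC and 14 in AOM-DSS tumours. In edgeR 0 members passed in the miR-30 (of 5), miR-10 (of 2), miR-181 (of 3) and miR-23/27/24 (of 5) lists and the squamous list (of 2), whose medians were 0.15, 1.67, -0.44, 0.00 and -0.52. At an unadjusted p under 0.05 these lists held 1, 2, 1, 0 and 1, and DESeq2 called 0, 1, 1, 0 and 1. In the let-7 family 1 of 9 passed (let-7e, median -0.04), in the miR-15/16 family 1 of 6 (miR-497, median 0.10), in the miR-34 family 1 of 6 (miR-449b near background, median -0.41), and in the neural list 1 of 4 (miR-9, median -0.35). The medians of the let-7, miR-15/16 and miR-30 lists changed sign under another scaling. Of 16 miRNAs reported lowered in colorectal tumours, 8 had a positive and 2 a negative difference past the threshold (median 0.64), against 3.91% and 2.84% of all miRNAs. Of 23 reported raised, 1 was positive and 3 negative (median 0.08, -0.55 scaled to the mRNA probes). Of the 16, 12 fell in each model, and 16 of the 23 rose in APC and 17 in AOM-DSS. Over all 563, 71 fell in APC and 48 in AOM-DSS, and 52 and 48 rose.

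Within cartridges 1 and 2 the 20 libraries gave 17 calls, 12 positive and 5 negative, of which 14 were among the 38. With cartridge 3 as a term there were 18, 16 of them among the 38. The 14 included miR-192, miR-194, miR-375, miR-378, miR-9, miR-100, miR-125b-5p and miR-1224. The rest of the 14 were miR-1937c, miR-2134 and miR-741, and, near background, miR-669f, miR-486 and miR-503. Estimates kept their sign for all 38. The calls for miR-31, miR-135a, miR-135b, miR-143 and miR-145 were lost there. Leaving out APC tumour 1 alone raised the count from 38 to 57 (29 positive, 28 negative). Without it and AOM-DSS normal 7 the count was 59, an alternative added after the data were seen.

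**Figure D4:**
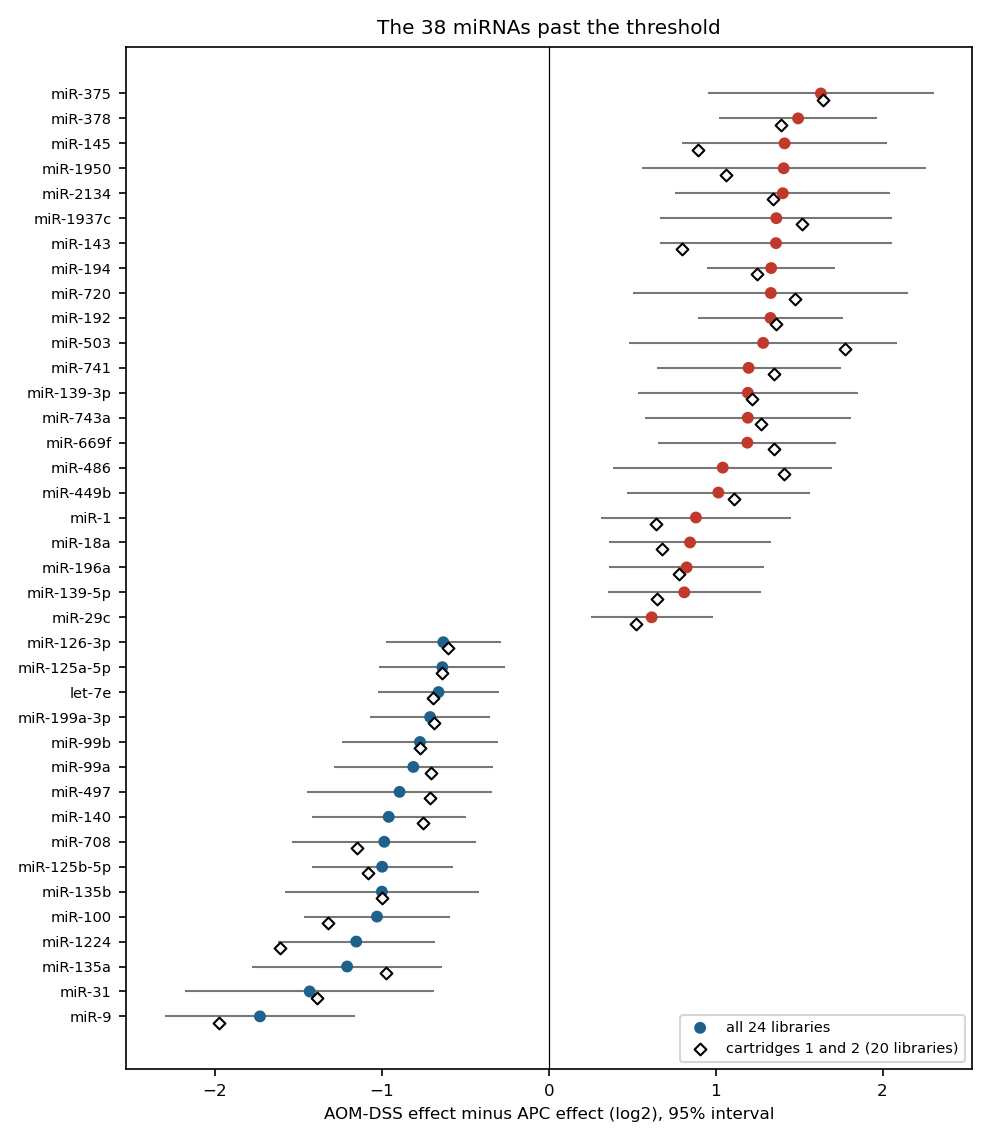
Difference of tumour effects (AOM-DSS minus APC, log2) for the 38 miRNAs past the threshold, with the 95% interval of the fit over all 24 libraries (filled circles) and the estimate within cartridges 1 and 2 (diamonds). All diamonds lie on the same side of 0 as their circles, and those of miR-143 and miR-145 lie nearer to 0.

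**Figure D5:**
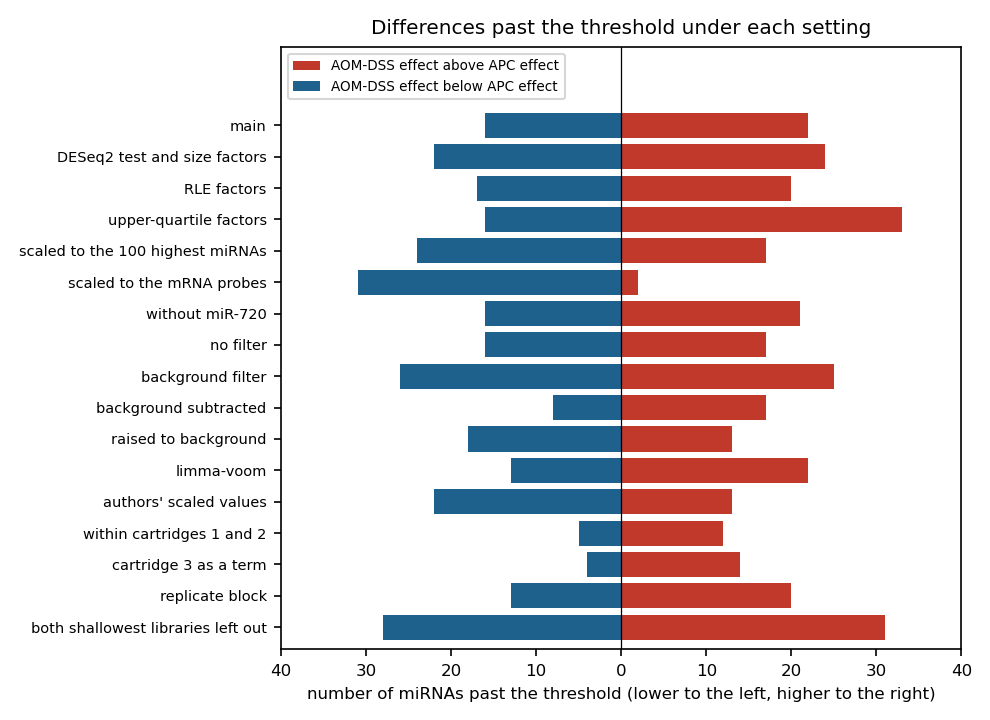
Number of miRNAs past the threshold with a positive (right, red) and a negative (left, blue) difference under each setting, from 38 with the settings of the report to 17 within cartridges 1 and 2 and 59 without the 2 shallowest libraries. Scaled to the mRNA probes, 2 are positive and 31 negative.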

How the data were processed

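The authors deposited raw counts, 1 for each probe and library, from the NanoString nCounter. Per the file headers the 24 columns are counts, and their values are whole numbers with unequal totals, so that no normalization is visible. The deposited value table holds a scaled signal, each raw count times 1 factor per library with 33 counts of 0 set to 1, and it entered only 1 alternative, as log2 of the authors' scaled value plus 1. What the factor rests on, and with which software it was made, is not given in the sources. Every raw column names its group, and 6 of the 24 also match 1 sample by name. The library numbers of the others follow the value table, each column of which was a constant multiple of exactly 1 raw column (tolerance 1e-06), and serve as names and for the check of pairing. Columns of other series numbered 0.

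The 566 mouse miRNA probes entered edgeR 4.0.16 under R 4.3.3. The filter filterByExpr (minimum count 10, minimum total 15) kept 563, TMM factors scaled the libraries, and 1 robust quasi-likelihood fit held the 4 groups. The contrast was (AOM-DSS tumour minus normal) minus (APC tumour minus normal), and the threshold was 0.05 on p-values with Benjamini-Hochberg adjustment over the 563. A standard error is the absolute log2 change over the square root of F, and ± on the log2 scale is this SE. The alternatives used limma 3.58.1 and DESeq2 1.42.0, and the fit was tested on simulated data. The 16 alternatives and the 24 fits that each left out 1 library are described with the limits. Among the 11 tumours with a normal library of the same number, the deviations from the group means correlated at -0.377 to 0.217 over 222 probes, with 1 above 0.1, so the numbers were not taken as pairs.

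Named miRNAs are miR-135a and miR-135b, the 15 largest differences each way past the threshold and above background, the 5 largest mean rises and falls, and up to 2 members with the smallest p from each of 26 lists, with background the mean plus 2 SD of the viral probes in each library. Other list members, and the 4 called miRNAs near background that the rule leaves out (miR-139-3p, miR-1950, miR-503 and miR-743a), were named after their values were seen. The members and lists were chosen with earlier results of these data known. Probes that count near-identical miRNAs together cannot be split.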

Additional observations from a re-analysis of the deposited data

Results flagged for a closer look

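The tumour effect differed between the models by the test of the difference itself for 34 of the named miRNAs. Positive differences on the log2 scale (AOM-DSS effect above APC effect) belonged to miR-375 (1.63), miR-378 (1.49), miR-145 (1.41), miR-2134 (1.40), miR-1937c (1.36), miR-143 (1.36), miR-194 (1.33), miR-720 (1.33), miR-192 (1.33), miR-741 (1.20), miR-669f (1.19), miR-1 (0.88), miR-18a (0.85), miR-196a (0.83), miR-139-5p (0.81), miR-449b (1.02), miR-29c (0.62) and miR-486 (1.04). Negative differences belonged to miR-135a (-1.21), miR-135b (-1.00), miR-9 (-1.73), miR-31 (-1.43), miR-1224 (-1.15), miR-100 (-1.03), miR-125b-5p (-1.00), miR-708 (-0.99), miR-140 (-0.96), miR-497 (-0.89), miR-99a (-0.81), miR-99b (-0.77), miR-199a-3p (-0.71), let-7e (-0.66), miR-125a-5p (-0.64) and miR-126-3p (-0.63). In no group did the median of miR-449b or of miR-486 exceed background.

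A single library stood apart from its group in 28 of 248 groups of 5 to 7 libraries tested for named miRNAs. By its construction the rule flags about 1 of 20 groups of normally distributed values, a rate not measured in these data. APC tumour 1 did so most often, for 10 miRNAs, with 6356 CPM for miR-145, 180 CPM for miR-497, 967 CPM for miR-99b, 525 CPM for miR-34a, 304 CPM for miR-30e, 364 CPM for miR-195, 828 CPM for miR-203, 658 CPM for miR-126-5p, 36.8 CPM for miR-486 and 96.7 CPM for miR-144. AOM-DSS normal 7 stood apart with 1821 CPM for miR-196a, 607 CPM for miR-140, 924 CPM for miR-99a, 1636 CPM for let-7e and 845 CPM for miR-137. AOM-DSS normal 6 stood apart with 549 CPM for miR-2134 and 2162 CPM for miR-125a-5p. APC tumour 5 stood apart with 10849 CPM for miR-194 and 205 CPM for miR-181c. AOM-DSS normal 3 stood apart with 215 CPM for miR-669f and 492 CPM for miR-155. AOM-DSS tumour 2 stood apart with 1810 CPM for miR-140 and 824 CPM for miR-142-5p. APC normal 1 stood apart with 244 CPM for miR-669f. AOM-DSS tumour 3 stood apart with 614 CPM for miR-18a. APC normal 2 stood apart with 674 CPM for miR-139-5p. AOM-DSS tumour 1 stood apart with 2101 CPM for miR-10a. APC tumour 2 stood apart with 6441 CPM for miR-23a. APC tumour 1 and AOM-DSS normal 7 were also the shallowest libraries. The part of depth in these values was not tested.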

How the results depend on the processing

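The 38 differences past the threshold (22 higher, 16 lower) became 46 with DESeq2, 35 with limma-voom and 33 without the filter. Within cartridges 1 and 2, without AOM-DSS tumours 3 to 6, 17 were called (12 higher, 5 lower). A term for cartridge 3 left 18 calls, of which 14 were higher and 4 lower. The APC libraries lay on a cartridge of their own, so that model and cartridge cannot be told apart within normal or within tumour tissue. Cartridge 3 held only AOM-DSS tumours 3 to 6, so that any shift of that cartridge enters the difference over all libraries. Scaling set the split between directions, with 2 higher and 31 lower against the mRNA probes, which moved the median of all probes by -0.52. The authors' scaled values gave 13 higher and 22 lower. The background filter gave 26 lower, background subtraction 25 calls with 8 lower, and raising counts to background 13 higher. With 1 library left out, the calls ran from 30 to 57, the higher ones from 15 to 29 and the lower ones from 11 to 28, each highest without APC tumour 1. Without the shallowest libraries, APC tumour 1 and AOM-DSS normal 7, an alternative chosen after seeing the data, 59 were called, 28 of them lower. With the replicate number as a block, 33 were called (20 higher, 13 lower) and 29 of the 38 were kept, but 2 of the 11 tumours correlated best with the normal library of their own number. The cause of these changes was not tested.

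Of the named miRNAs, 11 changed sign under an alternative, and 1 of them, miR-203, also when single libraries were left out. Scaled to the mRNA probes, miR-19b was at -0.07, let-7g at -0.32, miR-29b at -0.35, miR-30e at -0.11, miR-27b at -0.38, miR-23a at -0.38 and miR-203 at -0.56. For miR-27b the difference was -0.12 within cartridges and -0.08 with the cartridge term, and for miR-23a -0.03 in the authors' scaled values. Raised to background, miR-449b was at -0.33, miR-486 at -0.23, miR-543 at -0.33 and miR-494 at -0.30. In that setting the median of all probes was -0.33, the difference of the background itself. Leaving out 1 library moved miR-203 between -0.15 and 0.20, and it was at -0.18 without both shallowest libraries. Over all named miRNAs and alternatives, 2197 values kept their direction and side of the threshold, 203 fell short of it, 58 newly passed and 17 changed sign. Of the medians of the lists, 999 moved by less than the spread between libraries and 41 by more. The background filter removed miR-449b, miR-486, miR-494 and miR-543, which have no value there. Counts near background and the number of libraries limit the precision.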
